A study of Mus musculus with 3 samples.

Results

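Cells of the embryonic mouse thymus were examined for the RNA of 10 genes of the Notch pathway, out of 27998 genes counted. The 10 genes were taken by name and comprised 4 ligands (Dll4, Dll1, Jag1 and Jag2), 3 receptors (Notch1, Notch2 and Notch3) and 3 targets of the pathway (Hes1, Hey1 and Dtx1). Their unique molecular identifier (UMI) counts, in which each UMI stands for 1 captured transcript, were read from the count matrix of each of 3 droplet libraries and summed over cells positive for Epcam, Pdgfra, Cdh5 or Ptprc. The libraries came from C57BL/6 thymic lobes of embryonic day 13 to 13.5, dissociated with trypsin, with 1 library per genotype. The control library was compared with a library labelled Tbx1neo2/neo2 and with one labelled Foxn11089/1089. The neo2 allele carries a neomycin cassette in an intron of Tbx1 and lowers the gene's output in the whole embryo, so that the animals model the small thymus of the human DiGeorge deletion syndrome. Foxn11089/1089 embryos carry a small deletion on both copies of Foxn1, the transcription factor that directs thymic epithelial differentiation, and also have a hypoplastic thymus. How many embryos were pooled for a library is not stated in the sources used here.

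Notch receptors are single-pass membrane proteins that are cut when a Delta-like or Jagged ligand on a neighbouring cell binds them. The released intracellular part enters the nucleus, joins the DNA-binding protein RBPJ and switches on genes such as Hes1, Hey1 and Dtx1. In the thymus, Dll4 on epithelial cells engages Notch1 on incoming hematopoietic progenitors and commits them to the T cell lineage. In blood vessels, Dll4 and Jag1 mark arterial endothelium and Notch3 is the main receptor of pericytes and smooth muscle.

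The libraries held 82936619 UMIs over 6410 barcodes (control), 137498422 over 5759 (labelled Tbx1neo2/neo2) and 204655055 over 12447 (labelled Foxn11089/1089). After quality limits and removal of barcodes rich in hemoglobin UMIs, barcodes with a UMI of exactly 1 of the 4 class markers made up 3969, 2557 and 6698 cells. Median UMIs of an Epcam-positive cell were 16049.5, 40245 and 19120 in that order, and the smallest class, Cdh5-positive, held 47, 94 and 75 cells. Of 20 further markers of epithelium, mesenchyme, endothelium and blood, 20 had their highest level in their own class in all 3 libraries. Tbx1 itself stood at 1.39 UMIs per 1000000 UMIs (CPM) in the control library against 4.81 in the library labelled Tbx1neo2/neo2 and 5.43 in the library labelled Foxn11089/1089. So over all kept barcodes the library labelled Tbx1neo2/neo2 did not have less Tbx1 RNA than control, and the targeted gene did not check its label. Per 1000000 UMIs of a class, control and that library read 0.762 and 4.78 in Epcam-positive and 0.0616 and 0.939 in Ptprc-positive cells. They read 5.43 and 5.26 in Pdgfra-positive and 25.7 and 28.5 in Cdh5-positive cells, with overlapping intervals in these classes. Over all kept barcodes again, the next gene is given in the same order of libraries. Foxn1 stood at 38.4, 34.6 and 76.5 CPM, which checks nothing, since UMIs counted at the 3′ end do not see a small deletion. Pairs of libraries shared 16 to 24 barcode sequences. With 1 library per genotype, library and genotype cannot be told apart, no test was made, and every interval below is an exact 95% interval that covers counting error only.

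The members are protein-coding genes, placed here on GRCm38. The ligand genes lie at chr2:119325784-119335962 (Dll4), chr17:15367354-15376872 (Dll1), chr2:137081456-137116644 (Jag1) and chr12:112907819-112929776 (Jag2). The receptor genes lie at chr2:26457903-26516663 (Notch1), chr3:98013527-98150361 (Notch2) and chr17:32120820-32166852 (Notch3). The target genes lie at chr16:30064384-30067796 (Hes1), chr3:8663359-8667256 (Hey1) and chr5:120680202-120711927 (Dtx1). Promoter sequence is shown for Dll4, Jag1 and Notch2, a ligand pair and a receptor that were at least 2-fold lower in Epcam-positive cells of the library labelled Foxn11089/1089. The target Dtx1 was also at least 2-fold lower there, and its promoter is not printed. Each sequence was taken from the RefSeq promoter table (GRCm38.p6) and ends at the base before the GENCODE gene start given above. It runs 5′ to 3′ on the strand of the gene, with the core of the FOXN1 motif, GACGC or its reverse complement GCGTC, in capitals.

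Dll4, chr2:119325534-119325783, plus strand: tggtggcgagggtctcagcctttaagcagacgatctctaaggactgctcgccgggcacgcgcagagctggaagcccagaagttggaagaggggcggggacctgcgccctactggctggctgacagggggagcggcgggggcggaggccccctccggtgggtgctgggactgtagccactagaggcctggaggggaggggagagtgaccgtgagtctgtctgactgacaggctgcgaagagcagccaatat

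Jag1, chr2:137116645-137116770, minus strand: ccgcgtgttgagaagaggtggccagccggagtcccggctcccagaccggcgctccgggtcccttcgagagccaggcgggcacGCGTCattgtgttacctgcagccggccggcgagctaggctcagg

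Notch2, chr3:98013288-98013526, plus strand: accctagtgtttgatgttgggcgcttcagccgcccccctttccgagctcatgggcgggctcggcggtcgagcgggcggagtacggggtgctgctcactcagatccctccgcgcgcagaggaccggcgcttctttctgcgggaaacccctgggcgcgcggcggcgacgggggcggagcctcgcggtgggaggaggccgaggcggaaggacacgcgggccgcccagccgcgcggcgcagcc

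The Jag1 stretch holds GCGTC once, 44 bases before the GENCODE start, and the Dll4 and Notch2 stretches hold neither form. The window of Dtx1, which is not printed, holds neither form as well. Of the 8 members with an entry in the promoter table, 3 (Dll1, Jag1 and Notch1) held GACGC on either strand in the 250 bases before the start, against 22.6% of 32851 promoter windows of the same length. The core of the RBPJ motif, TGGGAA or its reverse complement TTCCCA, was in 0 of the 8 and in 21.6% of all windows. These letters are a description of the window and not a measured site.

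Dll4, the ligand that epithelial cells present to T cell progenitors, was highest in Cdh5-positive cells and second in Epcam-positive cells in all 3 libraries. Levels are given in CPM, here per 1000000 UMIs of the same class. In Epcam-positive cells Dll4 stood at 16.6 (95% interval 15.2 to 18.0) in control, 24.3 (95% interval 22.7 to 26.0) in the library labelled Tbx1neo2/neo2 and 7.03 (95% interval 6.46 to 7.63) in the library labelled Foxn11089/1089, from 566, 880 and 569 UMIs. The Foxn11089/1089 level lay below both others and the Tbx1neo2/neo2 level above both, with no overlap of the intervals. The log2 ratio to control was -1.24 (95% interval -1.41 to -1.07) for Foxn11089/1089 and 0.55 (95% interval 0.40 to 0.71) for Tbx1neo2/neo2. The median gene of this class lay 0.27 and 0.40 above control on the log2 scale, so that Dll4 sat -1.51 from the median gene in the first comparison and 0.15 in the second. With every cell thinned to 2000 UMIs the Foxn11089/1089 ratio was -0.69 (95% interval -1.26 to -0.12), short of 2-fold, and the Tbx1neo2/neo2 ratio 1.09 (0.46 to 1.70), from 52 control, 58 and 41 UMIs. Thinned to 5000 UMIs they were -1.10 and 0.58. Each thinned value here and below is a single random draw from few UMIs.

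The share of Epcam-positive cells with a Dll4 UMI was 21.04% in control, 41.8% in the library labelled Tbx1neo2/neo2 and 11.17% in the library labelled Foxn11089/1089. At 2000 UMIs per cell the shares were 3.11%, 3.05% and 1.45%, from another random draw than the thinned ratios. At this equal depth the share in the library labelled Tbx1neo2/neo2 did not exceed control, unlike its level. The share in the library labelled Foxn11089/1089 was the lowest, and no further order is read from these single draws. Hemoglobin-rich barcodes, which should lack the gene, held a Dll4 UMI in 0.546%, 0% and 1.37% at median depths of 8508, 18865.5 and 13281.5 UMIs, where the 0 allows a share of up to 0.802%. At equal depth their shares were 0%, 0% and 0.172%, where the 0 of control and of the library labelled Tbx1neo2/neo2 allow up to 0.872% and 0.813%.

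**Figure D1:**
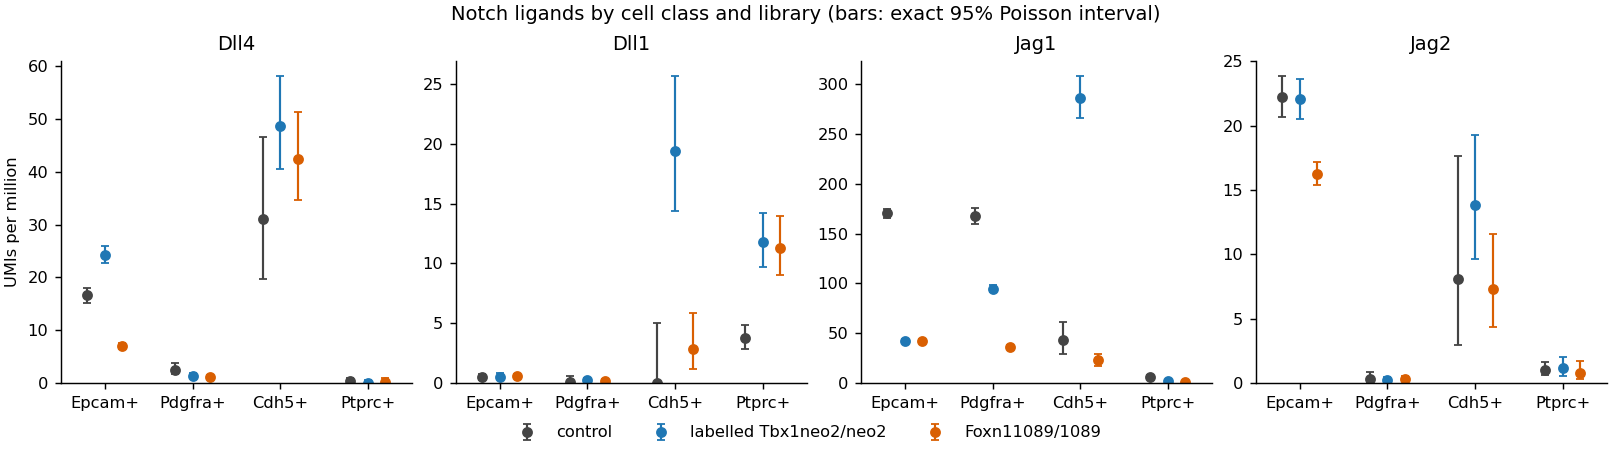
Level in CPM of the 4 Notch ligands in each cell class and library, with exact 95% intervals that cover counting error only (1 library per genotype). In Epcam-positive cells Dll4 stands at 16.6, 24.3 and 7.03 in the control, Tbx1neo2/neo2 and Foxn11089/1089 libraries, and Jag1 in Cdh5-positive cells is highest in the library labelled Tbx1neo2/neo2, at 286.

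Within the epithelium Dll4 was higher in Foxn1-positive cells than in the other Epcam-positive cells of the same library. Foxn1-positive here means a Foxn1 UMI left after thinning to 2000 UMIs, and both sets leave out the parathyroid-marked cells described below. Such cells were 15.8%, 17.3% and 24.5% of those with that depth. At full depth 62.1%, 63.4% and 66.8% of Epcam-positive cells held a Foxn1 UMI, so the other cells included many with Foxn1 RNA. The levels were 23.2 against 15.5 in control, 36.4 against 21.9 in the library labelled Tbx1neo2/neo2, and 11.9 against 6.03 in the library labelled Foxn11089/1089. These differences were 1.49-fold (1.21 to 1.83), 1.66-fold (1.42 to 1.94) and 1.98-fold (1.67 to 2.35), each with an interval above 1. Both subsets lay below control in the library labelled Foxn11089/1089, with log2 ratios of -0.96 and -1.37. Parathyroid-marked cells (at least 2 of Gcm2, Pth, Chga, Casr and Spp1), which share the pharyngeal pouch origin of the thymus, numbered 24 in control, 0 in the library labelled Tbx1neo2/neo2 and 290 in the library labelled Foxn11089/1089, and the 0 of 753 epithelial cells of at least 2000 UMIs allows up to 0.398%. In the last library their Dll4 stood at 0.842 from 6 UMIs, 0.0705 (95% interval 0.0256 to 0.156) times the level in its Foxn1-positive cells.

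Endothelial Dll4 was 31.1 (95% interval 19.7 to 46.7) in control, 48.7 (95% interval 40.4 to 58.0) in the library labelled Tbx1neo2/neo2 and 42.4 (95% interval 34.6 to 51.4) in the library labelled Foxn11089/1089, from 23, 123 and 104 UMIs. The intervals overlapped, and the log2 ratios to control were 0.65 (95% interval -0.0052 to 1.36) and 0.45 (95% interval -0.22 to 1.17). The second turned to -0.38 with cells thinned to 2000 UMIs, from 5 and 4 UMIs, and was 0.74 thinned to 5000 UMIs, from 17 and 6 UMIs. Cdh5-positive cells exceeded Epcam-positive cells by 1.87-fold (1.18 to 2.84) in control, 2.001-fold (1.64 to 2.42) in the library labelled Tbx1neo2/neo2 and 6.03-fold (4.85 to 7.44) in the library labelled Foxn11089/1089. In Pdgfra-positive cells Dll4 was 2.56, 1.39 and 1.10. The log2 ratio of -1.21 for Foxn11089/1089 was -0.93 after thinning to 2000 UMIs, from 4 and 3 UMIs, and -1.39 after thinning to 5000, from 9 and 9 UMIs. That Foxn11089/1089 level lay near the 1.06 of hemoglobin-rich barcodes and cannot be told from background. Ptprc-positive cells held 8, 1 and 2 Dll4 UMIs, or levels of 0.493, 0.104 and 0.262. These are near the 0.535, 0 and 1.06 of hemoglobin-rich barcodes, where the 0 allows up to 0.403, and were read as background.

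Dll1, the second Delta-like ligand, was highest in Ptprc-positive cells of the control and Foxn11089/1089 libraries. Its level there was 3.76 (95% interval 2.87 to 4.83) in control, 11.8 (95% interval 9.71 to 14.2) in the library labelled Tbx1neo2/neo2 and 11.3 (95% interval 9.03 to 13.9) in the library labelled Foxn11089/1089, from 61, 113 and 86 UMIs. Both other libraries lay above control without overlap, with log2 ratios of 1.65 (95% interval 1.19 to 2.12) and 1.59 (95% interval 1.10 to 2.08). The second was 0.58 with cells thinned to 2000 UMIs, short of 2-fold, from 4 and 8 UMIs. With cells thinned to 5000 UMIs it was 1.75 (95% interval 0.85 to 2.67), from 24 and 21 UMIs. Within the class it was higher in cells with T-lineage markers (at least 2 of Cd3g, Cd3d, Cd3e, Lck and Thy1), at 5.90, 21 and 37.4, against 0.390, 1.69 and 7.01 in cells with myeloid markers (at least 2 of Csf1r, Lyz2, C1qa, C1qb, Fcer1g and Cd68). A cell of either kind also had to hold more genes of its own list than of the other. T-lineage cells made up 42.8%, 42.8% and 16.5% of Ptprc-positive cells, or 361, 80 and 47 cells. These cells were called on full counts, a choice made after seeing the data, since calling on 2000 UMIs left only 7 cells in the library labelled Foxn11089/1089. Shares from full counts depend on depth, and the median UMIs of a Ptprc-positive cell were 19844, 48848 and 22929. Called on 2000 UMIs, T-lineage cells made up 16.0%, 11.5% and 2.51%, or 134 of 837, 21 of 183 and 7 of 279 cells.

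In Cdh5-positive cells Dll1 had 0 UMIs in control, 49 in the library labelled Tbx1neo2/neo2 and 7 in the library labelled Foxn11089/1089. The level in the library labelled Tbx1neo2/neo2, 19.4 (95% interval 14.3 to 25.6), was at least 4.78-fold higher than the 4.06 that the control count of 0 allows at 3 counts. The exact interval of the ratio starts at 3.74-fold. In Epcam-positive cells Dll1 stood at 0.469, 0.525 and 0.556, beside 0, 0.134 and 0.573 in hemoglobin-rich barcodes (where the 0 allows up to 0.803). Its small excess under Tbx1neo2/neo2 (0.16 on the log2 scale) was -0.21 once scaled by size factors (the median over genes of the ratio between libraries). Parathyroid-marked cells of the library labelled Foxn11089/1089 held 16 of its 45 epithelial Dll1 UMIs, 11.3 (95% interval 3.64 to 46.4) times the level in Foxn1-positive cells.

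Jag1, a Jagged ligand of arterial walls and many epithelia, differed between libraries in opposite directions by class. In Epcam-positive cells its level was 170.1 (95% interval 166 to 175) in control, 42.3 (95% interval 40.2 to 44.4) in the library labelled Tbx1neo2/neo2 and 42.3 (95% interval 40.9 to 43.8) in the library labelled Foxn11089/1089. Both other libraries lay below control, with log2 ratios of -2.01 (95% interval -2.09 to -1.93) and -2.01 (95% interval -2.07 to -1.95). Pdgfra-positive cells held 168, 94.8 and 36.4, again lower than control in both, with log2 ratios of -0.82 (95% interval -0.91 to -0.74) and -2.20 (95% interval -2.31 to -2.10). Control epithelium and mesenchyme did not differ beyond counting error, at 1.02-fold (0.961 to 1.07).

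Endothelial Jag1 went the other way in the library labelled Tbx1neo2/neo2. Its level was 43.3 (95% interval 29.6 to 61.1) in control, 286 (95% interval 266 to 308) in that library and 22.8 (95% interval 17.2 to 29.6) in the library labelled Foxn11089/1089, from 32, 723 and 56 UMIs. The log2 ratios were 2.72 (95% interval 2.21 to 3.28) and -0.92 (95% interval -1.57 to -0.25). Jag1 was higher in arterial-marked cells (at least 1 of Gja4, Gja5, Sox17 and Efnb2), where it stood at 69.0, 492 and 63.2 against 24.7, 55.6 and 1.87 in the other Cdh5-positive cells. Arterial-marked cells were 19 of 43, 57 of 83 and 25 of 70 Cdh5-positive cells of at least 2000 UMIs, or 44.2%, 68.7% and 35.7%.

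Mural and mesenchymal markers moved with this result. In Cdh5-positive cells the summed level of 6 pericyte or smooth muscle genes (Rgs5, Acta2, Tagln, Myl9, Cspg4 and Cnn1) was 14.9 in control, 379 in the library labelled Tbx1neo2/neo2 and 28.5 in the library labelled Foxn11089/1089, with 2, 0 and 2 of the 6 at 0. The 5 mesenchymal markers (Twist1, Prrx1, Col1a2, Col3a1 and Dcn) summed to 23.0, 171 and 40.8 there, against 4271 to 6118 in Pdgfra-positive cells. The 4 arterial markers summed to 479, 1059 and 294. Their part in the endothelial Jag1 level was not tested.

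Pericyte or smooth muscle cells, called by at least 3 of the 6 genes with no Epcam, Cdh5 or Ptprc UMI, held more Jag1 than the Pdgfra-positive class as a whole, at 551, 314 and 208 in 31, 241 and 47 cells. Pdgfra-positive cells without that marker set had 161, 60.8 and 33.7, which put the library labelled Tbx1neo2/neo2 further below control (log2 ratio -1.41) than the whole class did. Parathyroid-marked cells held 281 in control and 50.1 in the library labelled Foxn11089/1089, 1.92 (95% interval 1.52 to 2.42) and 1.44 (95% interval 1.26 to 1.64) times the level in Foxn1-positive cells. In Ptprc-positive cells Jag1 was 6.34, 1.88 and 1.31, at or below the 6.69, 5.78 and 6.04 of hemoglobin-rich barcodes. In control it was not spread evenly, with 9.05 in T-lineage and 2.34 in myeloid-marked cells, 3.87-fold (1.68 to 10.9).

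Jag2, the other Jagged ligand, was highest in the epithelium of all 3 libraries. Its level in Epcam-positive cells was 22.2 (95% interval 20.6 to 23.8) in control, 22.1 (95% interval 20.5 to 23.6) in the library labelled Tbx1neo2/neo2 and 16.3 (95% interval 15.4 to 17.2) in the library labelled Foxn11089/1089. The first pair overlapped (log2 ratio -0.0088, 95% interval -0.15 to 0.14), and the last lay lower (-0.45, 95% interval -0.58 to -0.32). Foxn1-positive cells exceeded the other epithelial cells by 1.53-fold (1.30 to 1.81) in the library labelled Tbx1neo2/neo2 and 1.45-fold (1.29 to 1.62) in the library labelled Foxn11089/1089, while the control value of 1.05-fold (0.859 to 1.28) had an interval that includes 1. Cdh5-positive cells held 8.11, 13.8 and 7.34, from 6, 35 and 18 UMIs. Pdgfra-positive cells held 0.307, 0.237 and 0.304 and Ptprc-positive cells 1.05, 1.15 and 0.787, beside 0.268, 0.269 and 1.55 in hemoglobin-rich barcodes.

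Notch1, the receptor through which T cell fate is set, was present in every class. In Ptprc-positive cells it stood at 63.6 (95% interval 59.8 to 67.6) in control, 93.04 (95% interval 87.0 to 99.4) in the library labelled Tbx1neo2/neo2 and 42.9 (95% interval 38.4 to 47.8) in the library labelled Foxn11089/1089. The 3 intervals did not overlap, with Tbx1neo2/neo2 highest and Foxn11089/1089 lowest. The log2 ratios were 0.55 (95% interval 0.42 to 0.68) and -0.57 (95% interval -0.75 to -0.39), which is 0.17 and -0.79 from the median gene. In T-lineage cells the levels were 72.4, 104 and 42.7, in the same order, against 48.8, 60.6 and 38.3 in myeloid-marked cells.

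Epithelial Notch1 was 33.3 (95% interval 31.4 to 35.3) in control, 47.1 (95% interval 44.9 to 49.4) in the library labelled Tbx1neo2/neo2 and 66.1 (95% interval 64.4 to 67.9) in the library labelled Foxn11089/1089, higher than control in both. The log2 ratios were 0.50 (95% interval 0.39 to 0.61) and 0.99 (95% interval 0.90 to 1.08), and the first turned to -0.20 when cells were averaged with equal weight. So in the library labelled Foxn11089/1089 Notch1 lay above control in the epithelium and below it in the hematopoietic cells. Parathyroid-marked cells of that library had less Notch1 than its Foxn1-positive cells, at 14.2 against 61.6, a fold of 0.230 (95% interval 0.186 to 0.282). Endothelial Notch1 was 78.4 (95% interval 59.6 to 101), 144 (95% interval 129.9 to 160.0) and 110.1 (95% interval 97.3 to 124), with log2 ratios of 0.88 and 0.49. These turned to -0.0054 and -0.16 after thinning to 2000 UMIs. Thinned to 5000 UMIs they were instead 1.69 (95% interval 0.76 to 2.76) and 1.14 (95% interval 0.15 to 2.25), from 11 control, 71 and 41 UMIs. The 2 depths thus moved the ratios in opposite directions. Pdgfra-positive cells held 27.8, 42.5 and 23.0, with log2 ratios of 0.62 (95% interval 0.43 to 0.81) and -0.27 (95% interval -0.47 to -0.07).

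**Figure D2:**
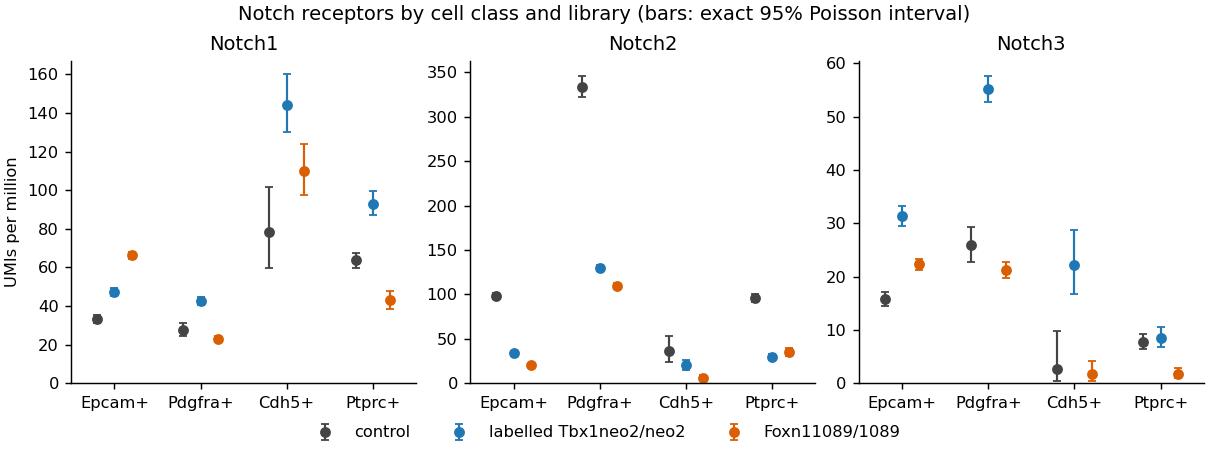
Level in CPM of Notch1, Notch2 and Notch3 in each cell class and library, with exact 95% intervals for counting error. Notch2 is highest in Pdgfra-positive cells of every library and lower than control in both other libraries, while Notch1 in Ptprc-positive cells reads 63.6, 93.04 and 42.9 in the control, Tbx1neo2/neo2 and Foxn11089/1089 libraries.

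Notch2, a receptor of mesenchyme and of myeloid and B cells, was lower than control in each of the 4 classes of both other libraries. It was highest in Pdgfra-positive cells, at 334 (95% interval 323 to 346) in control, 129.7 (95% interval 126 to 133) in the library labelled Tbx1neo2/neo2 and 109.6 (95% interval 106 to 113) in the library labelled Foxn11089/1089. The log2 ratios were -1.36 (95% interval -1.43 to -1.30) and -1.61 (95% interval -1.67 to -1.54). Epithelial Notch2 was 98.4, 34.4 and 20.9, with log2 ratios of -1.52 (95% interval -1.61 to -1.42) and -2.24 (95% interval -2.32 to -2.15). Ptprc-positive cells held 96.0, 29.2 and 34.8, with -1.72 (95% interval -1.91 to -1.53) and -1.47 (95% interval -1.66 to -1.28). Cdh5-positive cells held 36.5, 20.2 and 5.71, from 27, 51 and 14 UMIs, with -0.86 (95% interval -1.56 to -0.13) and -2.68 (95% interval -3.72 to -1.70).

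The Notch2 difference did not stop at the 4 classes. Hemoglobin-rich barcodes, which are red cell precursors and the RNA that surrounds them, read 14.5, 6.45 and 10.6, also highest in control. Notch2 in parathyroid-marked cells exceeded the Foxn1-positive epithelium by 2.39-fold (1.85 to 3.05) in control and 3.38-fold (2.89 to 3.95) in the library labelled Foxn11089/1089. The part of surrounding RNA in the Notch2 levels was not tested.

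Notch3, the receptor of vascular mural cells, was highest in Pdgfra-positive cells in control and in the library labelled Tbx1neo2/neo2, with Epcam-positive cells second. Mesenchymal levels were 25.9 (95% interval 22.8 to 29.3) in control, 55.2 (95% interval 52.8 to 57.6) in the library labelled Tbx1neo2/neo2 and 21.1 (95% interval 19.7 to 22.7) in the library labelled Foxn11089/1089. The first log2 ratio was 1.09 (95% interval 0.90 to 1.28) and the second -0.29 (95% interval -0.50 to -0.083). The first was under 2-fold in 4 of 10 alternatives, with 0.77 under size factors and 0.54 after thinning to 2000 UMIs. Thinned to 5000 UMIs it was 1.08. Pericyte or smooth muscle cells held 67.1, 134 and 66.6, above the whole class in each library, and without those cells the mesenchymal log2 ratio for Tbx1neo2/neo2 was 0.82.

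Epithelial Notch3 was 15.7 (95% interval 14.4 to 17.1), 31.3 (95% interval 29.5 to 33.2) and 22.3 (95% interval 21.2 to 23.3) in the control, Tbx1neo2/neo2 and Foxn11089/1089 libraries, with log2 ratios of 0.99 (95% interval 0.85 to 1.15) and 0.50 (95% interval 0.36 to 0.65). In Ptprc-positive cells it read 7.70, 8.45 and 1.71, from 125, 81 and 13 UMIs. The Foxn11089/1089 level was lower than control (log2 ratio -2.17, 95% interval -3.12 to -1.35), and the Tbx1neo2/neo2 ratio of 0.13 turned to -0.26 under size factors. T-lineage cells held 11.4, 12 and 1.31, the last from 2 UMIs. Cdh5-positive cells held 2, 56 and 4 Notch3 UMIs, a log2 ratio of 3.03 (95% interval 1.11 to 6.11) for Tbx1neo2/neo2 that was 0.58 after thinning to 5000 UMIs (6 and 2 UMIs). The pericyte or smooth muscle genes given above beside endothelial Jag1 were likewise highest in that class of that library, and their part in the Notch3 level was not tested.

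Hes1, a transcriptional repressor switched on by Notch in many tissues, was found in all 4 classes. Ptprc-positive cells held 167 (95% interval 161 to 174) in control, 262 (95% interval 252 to 273) in the library labelled Tbx1neo2/neo2 and 128 (95% interval 119.9 to 136) in the library labelled Foxn11089/1089, the same order as Notch1 in those cells. The log2 ratios were 0.65 (95% interval 0.57 to 0.73) and -0.39 (95% interval -0.50 to -0.28). T-lineage cells held 213, 329 and 176 and myeloid-marked cells 94.8, 172 and 92.5. In T-lineage cells called on 2000 UMIs the levels were 239, 321 and 259, the last from 7 cells, so the lower Foxn11089/1089 level was not seen in every subset. The T-lineage share of this class also differed between libraries, and its part in the Hes1 level was not tested. Epithelial Hes1 was 102, 209 and 175, higher than control in both, with log2 ratios of 1.03 (95% interval 0.98 to 1.09) and 0.78 (95% interval 0.72 to 0.83). The first was 0.66 under size factors and so depends on the scaling for its side of 2-fold. Pdgfra-positive cells held 103, 133 and 97.0. Cdh5-positive cells held 70.3, 90.2 and 135, and the Tbx1neo2/neo2 ratio of 0.36 turned to -0.0017 under size factors.

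Hey1, a related repressor and an arterial Notch target, was highest in Epcam-positive cells of all 3 libraries, at 80.1 (95% interval 77.1 to 83.2) in control, 141 (95% interval 137 to 145) in the library labelled Tbx1neo2/neo2 and 130.4 (95% interval 128 to 133) in the library labelled Foxn11089/1089. Both lay above control, with log2 ratios of 0.82 (95% interval 0.75 to 0.88) and 0.70 (95% interval 0.64 to 0.76). Pdgfra-positive cells held 7.99, 24.1 and 10.7, and the Tbx1neo2/neo2 log2 ratio was 1.60 (95% interval 1.26 to 1.95). Endothelial Hey1 was 25.7, 66.1 and 40.0, with a log2 ratio of 1.36 (95% interval 0.67 to 2.13) for Tbx1neo2/neo2. That ratio was 0.99 when each barcode was given to the marker with most UMIs and 1.83 as a mean over cells. With cells thinned to 5000 UMIs it was 0.42 (95% interval -0.74 to 1.70), from 24 and 9 UMIs. Thinned to 2000 UMIs, the library labelled Tbx1neo2/neo2 held 22 Hey1 UMIs in this class against 0 in control. The interval of that ratio lay wholly above 2-fold. Arterial-marked cells exceeded the other Cdh5-positive cells by 5.75-fold (1.83 to 23.8), 4.14-fold (2.76 to 6.42) and 5.23-fold (3.30 to 8.55). Ptprc-positive cells held 3.57, 6.26 and 3.94, beside 2.14, 1.75 and 12.03 in hemoglobin-rich barcodes.

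**Figure D3:**
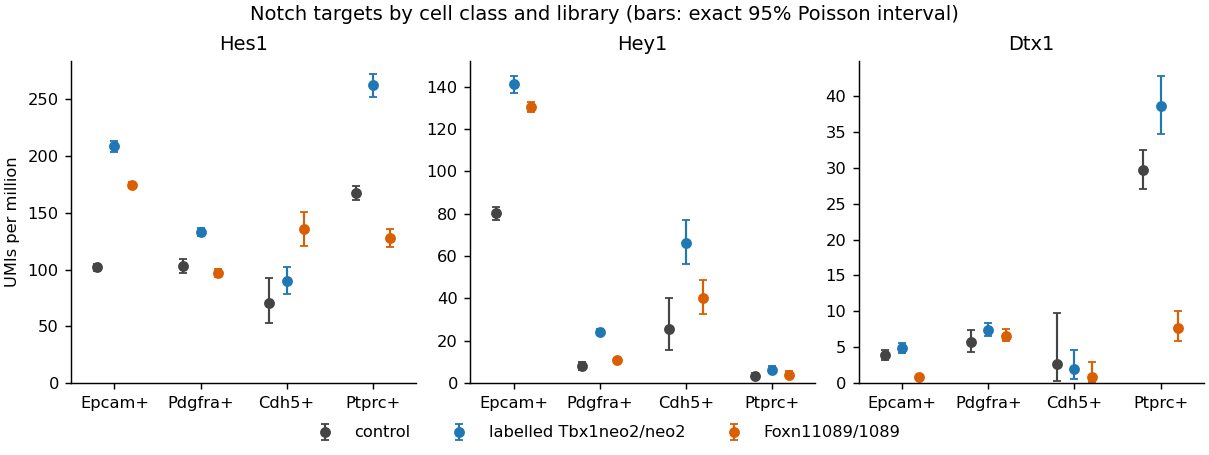
Level in CPM of the Notch targets Hes1, Hey1 and Dtx1 in each cell class and library, with exact 95% intervals for counting error. Dtx1 in Ptprc-positive cells reads 29.7, 38.6 and 7.74 in the control, Tbx1neo2/neo2 and Foxn11089/1089 libraries.

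Dtx1, which encodes a ubiquitin ligase that Notch signalling induces in developing T cells, was highest in Ptprc-positive cells, though in the library labelled Foxn11089/1089 these exceeded Pdgfra-positive cells by only 1.17-fold (0.864 to 1.56), an interval that includes 1. Its level was 29.7 (95% interval 27.1 to 32.5) in control, 38.6 (95% interval 34.8 to 42.7) in the library labelled Tbx1neo2/neo2 and 7.74 (95% interval 5.89 to 9.99) in the library labelled Foxn11089/1089, from 482, 370 and 59 UMIs. The last lay below both others, with a log2 ratio of -1.94 (95% interval -2.35 to -1.55). The Tbx1neo2/neo2 ratio of 0.38 (95% interval 0.18 to 0.58) turned to -0.013 under size factors. T-lineage cells held 45.4, 47.6 and 13.1 and myeloid-marked cells 12.5, 16.6 and 3.27, so Dtx1 lay below control in both subsets of the library labelled Foxn11089/1089. The log2 ratio among T-lineage cells, -1.79 (95% interval -2.52 to -1.14), lay near that of the whole class.

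In Epcam-positive cells Dtx1 was 3.87, 4.86 and 0.803, beside 0.535, 2.55 and 0.229 in hemoglobin-rich barcodes. Its log2 ratio for Foxn11089/1089 was -2.27 (95% interval -2.72 to -1.83), and that for Tbx1neo2/neo2, 0.33, turned to -0.039 under size factors. T-lineage RNA was lower than control in Epcam-positive cells of both other libraries. In Epcam-positive cells the 5 T-lineage genes summed to 44.8 in control, 6.27 in the library labelled Tbx1neo2/neo2 and 3.52 in the library labelled Foxn11089/1089, against 543, 403 and 119.6 in Ptprc-positive cells, with 0, 0 and 1 of the 5 at 0. The part of T-lineage RNA in epithelial Dtx1 was not tested. Of the epithelial Dtx1 UMIs in the library labelled Foxn11089/1089, 22 of 65 lay in parathyroid-marked cells. Pdgfra-positive cells held 5.73, 7.42 and 6.62, and the Foxn11089/1089 log2 ratio of 0.21 (95% interval -0.22 to 0.65) has an interval that includes 0.

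**Figure D4:**
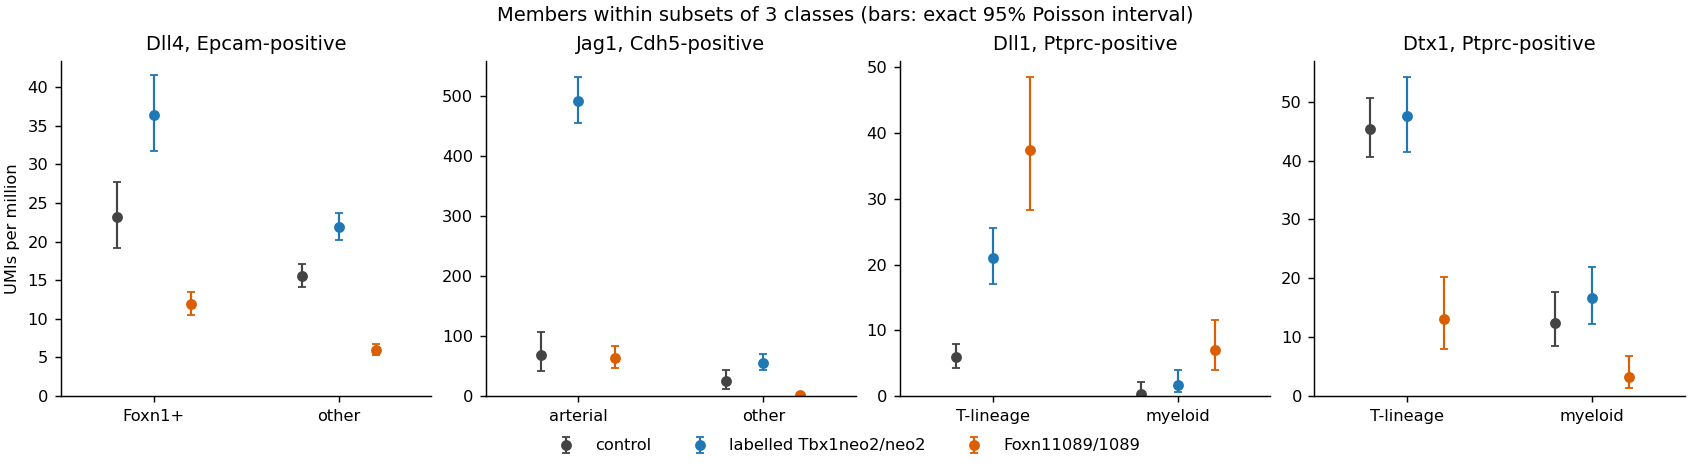
Level in CPM of members in marker-defined subsets of the classes in each library, with exact 95% intervals for counting error. Dll4 is higher in Foxn1-positive than in other Epcam-positive cells of every library, and arterial-marked cells of the Tbx1neo2/neo2 library hold Jag1 at 492.

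The members past 2-fold were counted in each class among those with at least 30 UMIs in the 2 compared libraries, beside the same count over all genes. Both comparisons share the control library, so their values stand side by side and their agreement is no separate evidence. In Epcam-positive cells all 10 passed the minimum. Under Tbx1neo2/neo2, 1 was at least 2-fold higher (Hes1) and 2 lower (Jag1 and Notch2), where 16.7% of all genes were higher and 4.88% lower. Under Foxn11089/1089, 0 were higher and 4 lower (Dll4, Dtx1, Jag1 and Notch2), where 16.3% of all genes were higher and 8.44% lower. The median member stood at 0.42 and -0.10 on the log2 scale, beside 0.40 and 0.27 for the median gene.

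In Pdgfra-positive cells 8 members passed, all but Dll1 and Jag2. Under Tbx1neo2/neo2, 2 were higher (Hey1 and Notch3) and 1 lower (Notch2), beside 18.5% and 3.9% of all genes. Under Foxn11089/1089, 0 were higher and 3 lower (Dll4, Jag1 and Notch2), beside 6.15% and 4.11%, with Dll4 at the level of hemoglobin-rich barcodes. The median member stood at 0.37 and -0.28, beside 0.40 and 0.21 for the median gene.

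In Cdh5-positive cells 9 members passed under Tbx1neo2/neo2, with 4 higher (Dll1, Hey1, Jag1 and Notch3) and 0 lower, beside 25.7% and 4.51% of all genes. Under Foxn11089/1089, 6 passed, with 0 higher and 1 lower (Notch2, with under 30 UMIs in that library), beside 10.8% and 4.48%. The median member stood at 0.88 and 0.47, beside 0.40 and 0.21, and the first was the same with Dll1 at its bound. Of the 4 higher members, 3 (Dll1, Hey1 and Notch3) had under 30 control UMIs and passed the minimum through the library labelled Tbx1neo2/neo2, so their count supports nothing. These counts rest on the fewest cells.

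In Ptprc-positive cells 8 members passed, all but Dll4 and Jag2. Under Tbx1neo2/neo2, 1 was higher (Dll1) and 2 lower (Jag1 and Notch2), beside 15% and 2.98% of all genes. Under Foxn11089/1089, 1 was higher (Dll1) and 4 lower (Dtx1, Jag1, Notch2 and Notch3), beside 11.5% and 5.74%. Jag1 lay below the level of hemoglobin-rich barcodes in both of these libraries. Of the lower members, 1 (Jag1) under Tbx1neo2/neo2 and 2 (Jag1 and Notch3) under Foxn11089/1089 had under 30 UMIs in that library. They passed the minimum through control, so these counts of lower members support nothing. The median member stood at 0.46 and -1.02, beside 0.38 and 0.22 for the median gene.

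The split of higher and lower genes depends on scaling. Of all genes past 2-fold, the share that was higher than control by CPM was 77.4% in Epcam-positive, 82.6% in Pdgfra-positive, 85.0% in Cdh5-positive and 83.4% in Ptprc-positive cells of the library labelled Tbx1neo2/neo2, and 43.2%, 57.2%, 60.0% and 45.2% under size factors. In the library labelled Foxn11089/1089 the shares were 65.8%, 59.9%, 70.7% and 66.6%, and 50.1%, 40.5%, 53.9% and 46.6% under size factors. For that reason the median gene of the same class stands beside the members above.

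**Figure D5:**
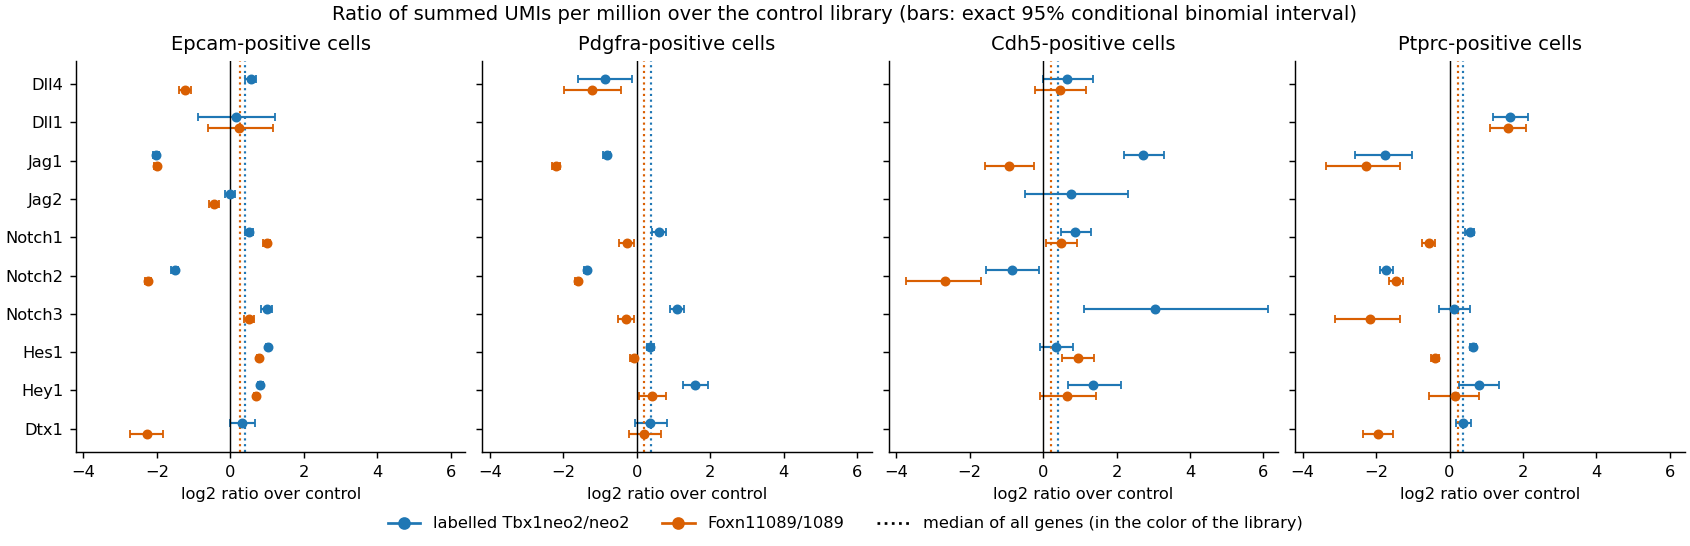
Log2 ratio to control of each member in each cell class for both comparisons, with 95% intervals for counting error and the median gene of the class marked. Members under 30 UMIs or at 0 in control are left out, and Notch2 lies below 0 in all 4 classes of both comparisons.

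A further 64 genes of the pathway were followed by role: other ligands and Notch4, glycosylation, ligand endocytosis, receptor cleavage, the nuclear complex, corepressors, other targets, and turnover or inhibition. In each pair of levels the control stands first. In Epcam-positive cells under Tbx1neo2/neo2, 62 passed the minimum, with 10 higher and 3 lower and a median of 0.51. These are 16.1% and 4.84%, near the 16.7% and 4.88% of all genes, whose median was 0.40. The higher genes included the ubiquitin ligases of ligand endocytosis Mib2, Neurl1a and Neurl1b and the targets Hey2 (1.35 to 4.31), Id1 and Ccnd1, and the others were Dlk1, Dtx4, Kat2b and Spen. Of the 10, 2 (Neurl1a and Neurl1b) had under 30 control UMIs. The lower genes were Gata3, a T cell target that also acts in the parathyroid, and the T cell targets Il2ra and Ptcra. Il2ra had under 30 UMIs in the library labelled Tbx1neo2/neo2. Parathyroid-marked cells numbered 24, 0 and 290 in the control, Tbx1neo2/neo2 and Foxn11089/1089 libraries, and their part in Gata3 was not tested. Under Foxn11089/1089, 64 passed, with 13 higher and 6 lower and a median of 0.34, or 20.3% and 9.38% beside 16.3% and 8.44% of all genes and a median of 0.27. Of the 13, 4 (Dll3, Dner, Hes5 and Neurl1a) had under 30 control UMIs. The higher genes included 3 of the 4 other ligands, Dlk1 (12.1 to 44.9), Dll3 (0.674 to 1.72) and Dner (0.117 to 0.383), besides Aph1b, Fbxw7, Gata3 (27.3 to 83.1), which also acts in the parathyroid, Hes5, Id1, Itch, Kat2b, Maml2, Neurl1a and Numbl. The lower genes were Dlk2, Dtx3l, Furin, Lfng (1.49 to 0.235), a glycosyltransferase that sets which ligand a Notch receptor answers, and the T cell genes Il2ra and Ptcra. Of the 6, 2 (Il2ra and Lfng) had under 30 UMIs in the library labelled Foxn11089/1089. Epithelial Il2ra read 3.17, 0.470 and 0.0247 and Ptcra 3.31, 1.58 and 0.544 in the control, Tbx1neo2/neo2 and Foxn11089/1089 libraries, moving with the T-lineage RNA given above, whose part was not tested.

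In Pdgfra-positive cells under Tbx1neo2/neo2, 59 passed, with 11 higher and 1 lower (Adam10, a sheddase that cuts Notch) and a median of 0.46. Their shares, 18.6% and 1.69%, stand beside 18.5% and 3.9% of all genes and an all-gene median of 0.40. Of the 11, 5 (Dner, Dtx4, Kat2b, Neurl1b and Nrarp) had under 30 control UMIs and passed the minimum through the library labelled Tbx1neo2/neo2. Of the 10 other targets that passed, 5 were higher, namely Hey2 (3.07 to 21.5, log2 ratio 2.81), Heyl (13.01 to 35.1, 1.43), Nrarp (2.56 to 12.97, 2.34), Ccnd1 (26.0 to 165, 2.67) and Sox9. Since Nrarp passed only through that library, the count of 5 supports nothing. The remaining higher genes were Dner, Dtx4, Itch, Kat2b, Mib2 and Neurl1b. Heyl, a target expressed in vascular smooth muscle, and the pericyte or smooth muscle genes both stood higher in this class of the library labelled Tbx1neo2/neo2, the latter at 1123 summed against 323 in control, and their part was not tested. Under Foxn11089/1089, 56 passed, with 1 higher (Id1) and 4 lower (Dtx3l, Furin, Heyl and Lfng) and a median of 0.15, or 1.79% and 7.14% beside 6.15% and 4.11% of all genes and a median of 0.21.

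In Cdh5-positive cells under Tbx1neo2/neo2, 50 passed, with 15 higher and 2 lower (Dtx3l and Ptcra) and a median of 0.56. Their shares were 30% and 4%, beside 25.7% and 4.51% of all genes and an all-gene median of 0.40. Of the 15 higher, 14 (all but Id1) had under 30 control UMIs and passed through the library labelled Tbx1neo2/neo2, so the count supports nothing. The 2 lower genes had under 30 UMIs in that library. The higher genes included Hey2, an arterial target, with 0 UMIs in control and a level of 71.2 in the library labelled Tbx1neo2/neo2, at least 17.6-fold above the 3 counts that the control 0 allows (the exact interval of the ratio starts at 14.1-fold), and Rbpj (10.8 to 38.8), besides Adam17, Aph1b, Dlk1, Fbxw7, Gata3, Id1, Kat2b, Maml1, Maml2, Ncstn, Pofut1 and Poglut1. Under Foxn11089/1089, 44 passed, with 3 higher (Adam17, Id1 and Rbpj) and 4 lower (Adam10, Dtx3l, Furin and Ptcra) and a median of 0.23, or 6.82% and 9.09% beside 10.8% and 4.48% of all genes and a median of 0.21. Adam17 and Rbpj had under 30 control UMIs, and Dtx3l, Furin and Ptcra had under 30 UMIs in the library labelled Foxn11089/1089.

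In Ptprc-positive cells under Tbx1neo2/neo2, 55 passed, with 9 higher (among them Adam17, Ccnd1, Dtx4, Id1, Itch, Kat2b, Neurl3 and Sox9) and 1 lower (Ptcra, 17.1 to 7.20) and a median of 0.49. Their shares, 16.4% and 1.82%, stand beside 15% and 2.98% of all genes and an all-gene median of 0.38, and 2 of the 9 (Dtx4 and Sox9) had under 30 control UMIs. Under Foxn11089/1089, 54 passed, with 3 higher (Ccnd1, Dlk1 and Neurl3) and 5 lower and a median of 0.08, or 5.56% and 9.26% beside 11.5% and 5.74% of all genes and a median of 0.22. Of the lower genes, 4 were targets, namely Il2ra (61.0 to 17.2, log2 ratio -1.83, 95% interval -2.10 to -1.56), the interleukin 2 receptor chain of early thymocytes, Nrarp (51.3 to 17.5, -1.56, 95% interval -1.83 to -1.29), a feedback inhibitor of Notch, Ptcra (17.1 to 1.18, -3.85, 95% interval -5.00 to -2.91), the surrogate chain of the early T cell receptor, and Hes5. The last was Furin, a protease that matures the receptor. Of the 10 other targets that passed, 4 were thus lower, 1 (Ccnd1) was higher and 5 lay within 2-fold. Of the 5 lower genes, 2 (Hes5 and Ptcra) had under 30 UMIs in the library labelled Foxn11089/1089. They passed the minimum through control, so the count of lower targets supports nothing. Among T-lineage cells alone the Foxn11089/1089 log2 ratio was -1.96 for Nrarp, -2.36 for Il2ra and -1.79 for Dtx1, while Rbpj stood at 1.47 and Dlk1 at 3.57. Those values rest on 47 cells called on full counts. In the 7 cells called on 2000 UMIs the ratios were -3.34 for Nrarp (1 UMI), -3.15 for Il2ra (2 UMIs) and -3.40 for Dtx1 (1 UMI). Rbpj was then 0.98, with an interval from -0.029 to 1.86 that includes 0, and Dlk1 5.65.

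Genes with a pattern like that of 4 members were sought over the 12 class-by-library levels, by the correlation of log2(level + 1) among 15100 genes. The 12 points share libraries and depth, and the coefficients are a description. Nearest to Dll4 were Exoc3l4 (r = 0.987), Parvb (0.983), Cd151 (0.976), Dmtn (0.967) and Cx3cl1 (0.966). Nearest to Notch1 were Myh9 (r = 0.920), 3110002H16Rik (0.916), Dcaf12 (0.913), Podxl (0.904) and Rnf125 (0.897). Nearest to Notch3 were Pabpn1 (r = 0.962), BC067074 (0.953), Kdm4b (0.947), Acacb (0.943) and Heyl (0.940). Nearest to Dtx1 were Emilin2 (r = 0.935), Colq (0.935), Fam159b (0.929), Kif5a (0.927) and Capn3 (0.919).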

How the data were processed

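Thymic lobes of 3 genotypes gave 3 droplet 3′ RNA libraries. The authors deposited a matrix of UMI counts per gene and barcode for each library, made with Cell Ranger 3.0.0 on the mm10 build. The gene annotation is not given in the sources used here. The deposited counts were used as they are, without normalisation, integration or clustering.

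Barcodes with at least 200 genes and at most 20% mitochondrial UMIs were kept, which left 5932, 5516 and 11772 in the control, Tbx1neo2/neo2 and Foxn11089/1089 libraries. Barcodes with over 20% hemoglobin UMIs (366, 374 and 2338) were set apart and served as background. A cell was put in a class if it had a UMI of 1 of the markers Epcam, Pdgfra, Cdh5 and Ptprc and of none of the others, which left out 454, 541 and 999 barcodes with several markers and 1143, 2044 and 1737 with none. Other doublets were kept in the main values. The authors' own filters may differ, and their cell names were not used here. Subsets were called by fixed markers on barcodes thinned to 2000 UMIs. T-lineage and myeloid cells were called on full counts, by at least 2 genes of their own list and more of these than of the other list.

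The counts of a member in a class were added up and expressed per 1000000 UMIs of that class. Levels have exact Poisson intervals, ratios exact conditional binomial intervals and shares exact binomial intervals, at 95%. A count of 0 allows up to 3 counts. With 1 library per genotype there is no replicate and no test, and past 2-fold stands for a log2 ratio over 1 or under -1. Deeper libraries and classes have narrower intervals and show more cells with a UMI, so shares were also taken at equal depth.

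Genes named are the 10 members, the pathway genes past 2-fold with at least 30 UMIs in the compared libraries of a class, and the 5 genes most like each of Dll4, Notch1, Notch3 and Dtx1 among genes with at least 100 UMIs. Some pathway genes that were counted are not reported here by name. The members and lists were chosen with earlier results of these data known. Alternatives changed the class call, the filters, the scaling, the weighting of cells, the depth and the gene minimum. The interval code was tested on simulated data. Python 3.11.15, numpy 2.4.6, scipy 1.17.1, pandas 2.3.3, scanpy 1.11.5 (Scrublet) and matplotlib 3.10.9 were used. Promoter windows came from a RefSeq table (GRCm38.p6), which held 8 of the 10 members, and gene positions from GENCODE on GRCm38.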

Additional observations from a re-analysis of the deposited data

Results flagged for a closer look

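Jag1 moved in opposite directions in the classes of 1 library. Under the label Tbx1neo2/neo2 its log2 ratio to control was -2.01 in Epcam-positive cells and 2.72 in Cdh5-positive cells. In Ptprc-positive cells the ratio was -1.76, at a level no higher than that of hemoglobin-rich barcodes. The difference between the classes was not tested, since each genotype has 1 library. Over all kept barcodes the Tbx1 level in the library labelled Tbx1neo2/neo2 was not lower than in control.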

How the results depend on the processing

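Each of 66 member ratios was recomputed under up to 10 alternatives. Of 652 values, 527 stayed within the counting interval of the main ratio, 125 moved out of it and 0 reversed a ratio past 2-fold. Of 25 ratios past 2-fold, 18 stayed past it in the same direction under each alternative, and 7 did not: Dll4 in Epcam-positive and Pdgfra-positive cells and Dll1 in Ptprc-positive cells under Foxn11089/1089, and Notch3 in Pdgfra-positive and Cdh5-positive, Hes1 in Epcam-positive and Hey1 in Cdh5-positive cells under Tbx1neo2/neo2. The sign held throughout for 52 of the 66. Epithelial Dll4 under Tbx1neo2/neo2 (0.55) was 0.18 with size factors and 1.09 with cells thinned to 2000 UMIs, and under Foxn11089/1089 (-1.24) it was -1.47 and -0.69. Hematopoietic Notch1 under Tbx1neo2/neo2 (0.55) was 0.97 with each barcode given to the marker with most UMIs, 0.083 as a mean over cells, 0.16 with size factors and 0.17 with cells thinned to 5000 UMIs, and under Foxn11089/1089 (-0.57) it was -1.08 as a mean over cells, -0.83 with size factors and -1.04 thinned to 5000 UMIs. The cause was not tested.

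Counts of all genes past 2-fold moved with the gene minimum, which changes how many genes are tested. With a minimum of 10 UMIs, and then with at least 1 UMI in each library, lower genes under Tbx1neo2/neo2 went from 688 to 1048 and 1507 (Epcam), from 530 to 804 and 1382 (Pdgfra), and from 341 to 574 and 737 (Ptprc). Under Foxn11089/1089 they went from 538 to 880 and 1590 (Pdgfra) and from 346 to 570 and 1143 (Cdh5), and higher genes in Cdh5-positive cells from 836 to 1471 and 1458. With at least 1 UMI in each library alone, lower genes went from 1247 to 2354 (Epcam, Foxn11089/1089), 385 to 997 (Cdh5, Tbx1neo2/neo2) and 646 to 1037 (Ptprc, Foxn11089/1089), and higher genes in Ptprc-positive cells from 1718 to 2910 under Tbx1neo2/neo2 and 1291 to 2745 under Foxn11089/1089.

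No paired analysis was possible because each genotype has 1 library and the labels share no replicate numbers. The limits are the lack of replicates, the few Cdh5-positive and T-lineage cells, and depths that differ between libraries. Calling T-lineage cells on full counts was chosen after seeing the data. It put Notch3 under Tbx1neo2/neo2 at 0.076 in place of -0.53 and Hes1 under Foxn11089/1089 at -0.28 in place of 0.12.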
